A study of Mus musculus with 6 samples.

Results

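The core autophagy machinery was taken here as 33 mouse genes listed by symbol, from the kinase complex that starts an autophagosome to the enzymes that couple LC3 proteins to its membrane. All 33 were found by gene name among the 55385 genes of a liver expression table. The rule uses no measured value, but the list was chosen with earlier results of these data known. Messenger RNA had been sequenced from the livers of 6 C57BL/6 mice at an age of 6 weeks, with 2 animals in each of 3 groups. Saline (200 µL of PBS) was injected intraperitoneally into the wild-type controls (replicates 3 and 6). Wild-type mice (replicates 1 and 4) and Optn-/- mice (replicates 4 and 5) received acetaminophen at 500 mg/kg, and every liver was taken after 6 h. Optn-/- mice lack optineurin, a receptor that links ubiquitinated cargo, including damaged mitochondria, to LC3. The labels describe the deletion no further, name no cell type restriction, and no Optn-/- mouse without acetaminophen was analysed here. A difference between the knockout and wild-type livers is therefore one measured after the drug, and each liver piece holds all of its cell types.

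In macroautophagy a cup of membrane closes around cytoplasm or organelles and delivers them to the lysosome. The ULK1 kinase complex receives nutrient and energy signals, a lipid kinase complex built on Becn1 and Pik3c3 marks the site, ATG9 vesicles and ATG2 supply lipid, and a pair of ubiquitin-like reactions attach LC3 and GABARAP proteins to the membrane. In the liver the process recycles nutrients during fasting and removes mitochondria damaged by acetaminophen's reactive metabolite. Much of its control acts on proteins, through phosphorylation and lipidation, which transcript levels do not measure.

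Total counts per library ran from 59143418 to 77292216, and the lowest count of any member in any library was 147. Optn had an FPKM of 0.32 and 0.46 in the knockout livers against 9.17 and 9.19 in the treated wild-type livers, so the genotype labels held. Hepatocyte markers were abundant in every library, and the 6 adipose markers summed to 6.46 and 1.96 CPM (counts per 1000000 counts) in saline, 8.02 and 7.11 in treated wild type and 32.4 and 27.2 in treated knockout. Adipoq, Lep and Retn were at 0 in both saline livers, Plin1, Lep and Retn in both treated wild-type livers and Plin1 and Lep in both knockout livers. They were looked at because the extraction protocol in the labels mentions adipose RNA, and the part of the higher sum in the knockout livers in the members' results was not tested. Traces of 10 skeletal muscle markers reached 55.5 to 87.5 CPM in saline liver 3 and the treated wild-type livers and at most 1.01 CPM elsewhere. Treated wild-type liver 4 also held 133.3 CPM of 8 neuron markers, against 5.91 to 14.3 CPM in the others. Both treated groups lie wholly on 1 side of the muscle trace, so for them the trace and the genotype cannot be told apart except through the 2 saline livers. A term for this library set (saline liver 3 and the treated wild-type livers against saline liver 6 and the knockout livers) was tried in the fit, and each library was left out in turn. Where either ends a call, that value is given beside it.

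All members passed the filter on low values, a mean FPKM (fragments per kilobase of gene, scaled to the library's total) of at least 0.5. Their levels spanned from a mean FPKM of 0.58 for Atg16l2 to 125.0 for Gabarapl1. Gabarapl1 and Gabarap, ubiquitin-like proteins that coat the growing membrane, stood at percentiles 97.1 and 96.6 among the 11677 genes tested. Map1lc3a (LC3A) stood at percentile 89.7, Vmp1 at 86.8 and Ulk1 at 83.8, whereas Rb1cc1 stood at 19.5. By step, the median of the member means was 9.79 FPKM for initiation, 3.19 for nucleation, 7.20 for membrane supply, 3.28 for ATG12 conjugation and 16.5 for the LC3 and GABARAP family with its processing enzymes. FPKM divides by a length close to that of all annotated exons of a gene. The order of levels between genes depends on that length.

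**Figure D1:**
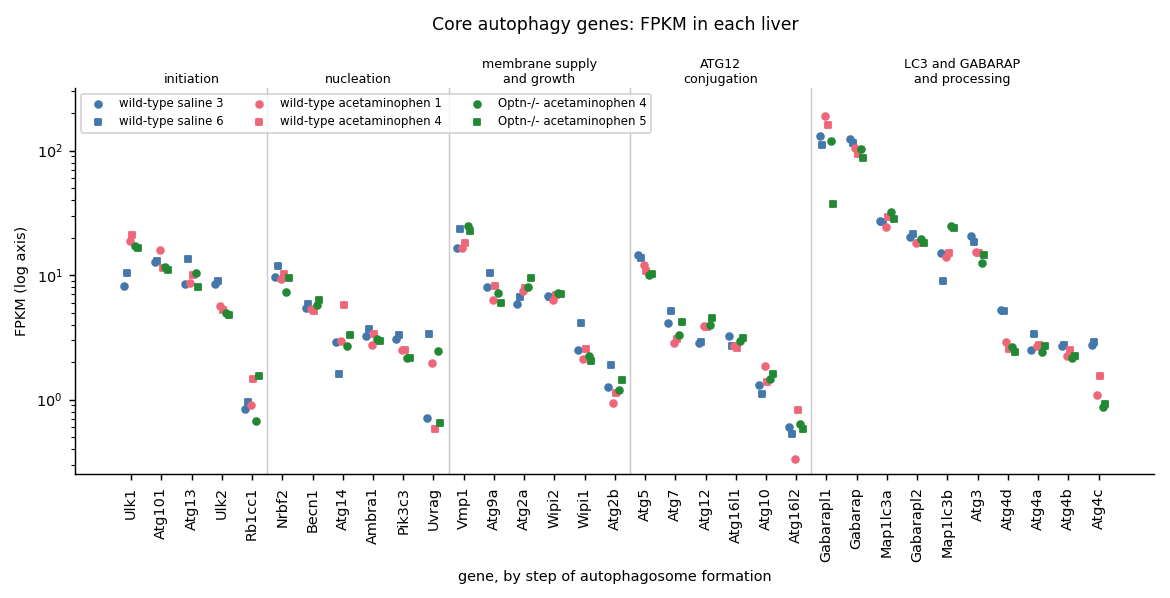
Deposited FPKM (log axis) of each of the 33 members in each of the 6 livers, grouped by step of autophagosome formation, with group shown by colour and replicate by marker. Gabarapl1 and Gabarap have the highest means and Atg16l2 the lowest, and knockout liver 5 lies apart from the other libraries at Gabarapl1.

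Replicates of 1 group lay close for most members. The median absolute log2 ratio between the 2 livers of a group was 0.19 over members in saline, 0.17 in treated wild type and 0.13 in treated knockout, against 0.21, 0.24 and 0.25 over all tested genes. Members more than 2-fold apart numbered 1 of 33 in saline, 2 in treated wild type and 3 in treated knockout, and over all tested genes the shares were 8.1%, 8.38% and 5.81%. Uvrag was past 2-fold in all 3 groups, Atg16l2 in treated wild type, and Gabarapl1 and Rb1cc1 in treated knockout.

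The first comparison asks how the machinery's transcripts stood 6 h after acetaminophen in wild-type mice. Of 33 members, 2 rose and 1 fell: Ulk1, the initiating kinase, and Atg12, a ubiquitin-like protein, rose, and Atg4d, a protease that trims LC3 proteins, fell. Over all tested genes 8.36% rose and 5.92% fell (14.3% in either direction, edgeR quasi-likelihood test, adjusted p under 0.05). The members' share was thus no higher than the background. An unadjusted p under 0.05 was reached by 8 members, against 32.3% of all tested genes. The median log2 fold change was 0.03 over the members and 0.03 over all tested genes. Scaling by total counts alone moved these medians to -0.19 and -0.19, and the calls over all genes from 976 higher and 691 lower to 724 higher and 1497 lower. In whole liver, fewer cells of a type and less RNA per cell cannot be told apart.

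The libraries after acetaminophen also held more blood cell transcripts. The 8 neutrophil markers summed to 2.502 and 6.53 CPM in the saline livers, with 5 and 7 of them detected, and to 70.3 to 193.4 CPM in the treated livers, with 8 of 8 detected. The 6 infiltrating monocyte markers went from 5.06 and 11.2 CPM to between 73.1 and 230.3 CPM, and the 6 red cell markers from 699.8 and 1110 CPM to between 3962 and 9383 CPM. Their part in the members' results was not tested.

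**Figure D2:**
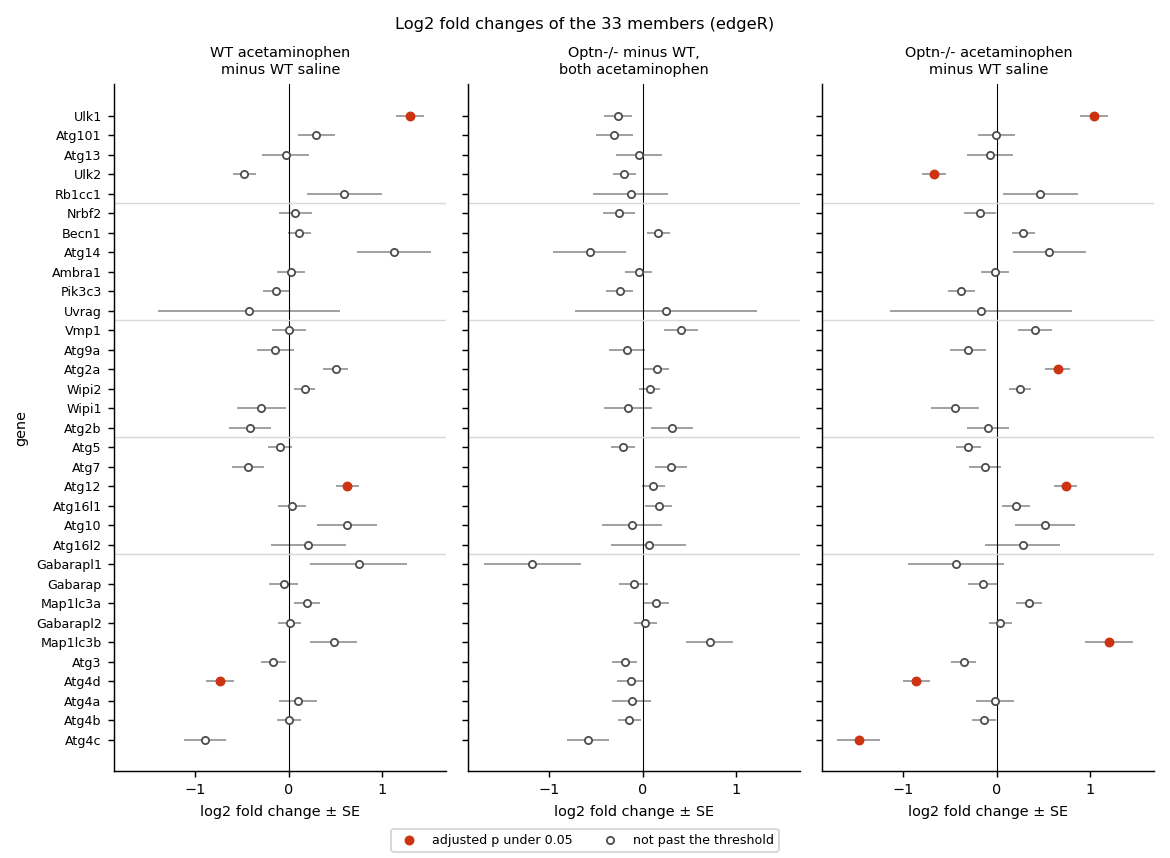
Log2 fold change ± SE of each member (edgeR, 2 livers per group) in the 3 comparisons, with filled points at an adjusted p under 0.05 and members ordered by step and mean level. Filled points are Ulk1, Atg12 and Atg4d on the left, none in the middle, and Ulk1, Ulk2, Atg2a, Atg12, Map1lc3b, Atg4d and Atg4c on the right.

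The initiation step held the member with the largest called change in wild type, Ulk1. Ulk1 (ENSMUSG00000029512, chromosome 5, 110784488 to 110810097, minus strand, GRCm38) encodes the kinase that AMPK activates and mTORC1 restrains. It had an FPKM of 8.14 and 10.5 in saline livers 3 and 6, 18.7 and 20.98 in treated wild-type livers 1 and 4, and 17.2 and 16.5 in treated knockout livers 4 and 5. All 4 treated livers lay above both saline livers, and the knockout livers lay just under the wild-type ones. Group means were 9.30 ± 1.64 (SD, n = 2), 19.8 ± 1.64 and 16.9 ± 0.46. The log2 fold change was 1.30 ± 0.15 (SE, edgeR adjusted p = 0.00731) for treated against saline wild type and 1.04 ± 0.15 (adjusted p = 0.00887) for treated knockout against saline. Between the treated genotypes it was -0.26 ± 0.15 (adjusted p = 0.673). Ulk1 kept its call in 15 of 15 alternative fits of both treated-against-saline comparisons, with adjusted p up to 0.0405 and 0.0491. That includes the fits without treated wild-type liver 4, the library with the neuron trace.

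The stretch from 120 to 1 bases before the RefSeq start of Ulk1 (chr5:110810082-110810201, minus strand, GRCm38.p6) is shown because Ulk1 had the member call that every fit kept. Capitals mark GC boxes, GGGCGG or its reverse complement, the letters bound by SP1.
Ulk1: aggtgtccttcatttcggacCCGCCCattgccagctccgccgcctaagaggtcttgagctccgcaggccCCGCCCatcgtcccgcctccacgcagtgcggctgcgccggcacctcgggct
The stretch held 2 GC boxes and no copy of the other 5 motifs searched.

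Ulk2 (ENSMUSG00000004798, chromosome 11, 61775649 to 61855073, minus strand), the paralog of Ulk1, was measured at 8.50 and 8.91 FPKM in saline, 5.59 and 5.22 in treated wild type and 4.92 and 4.73 in treated knockout. Both treated groups lay below saline without overlap, opposite to Ulk1. Ulk2 fell in the treated knockout against saline (-0.67 ± 0.12, adjusted p = 0.0174) and missed the threshold in wild type (-0.48 ± 0.12, adjusted p = 0.0562), where DESeq2, both limma fits and total count scaling called it. In the knockout comparison the call was lost without saline liver 3 (adjusted p = 0.0753), saline liver 6 (0.0711), knockout liver 4 (0.0520) or knockout liver 5 (0.0811), and in the fit with a library set term (0.0757). Between treated genotypes the value was -0.19 ± 0.12 (adjusted p = 0.706).

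The ratio of Ulk1 to Ulk2, both per length, was 0.958 and 1.17 in the saline livers, 3.34 and 4.02 in treated wild type and 3.50 and 3.49 in treated knockout. The paralogs were thus near equal in saline and unequal in all 4 treated livers. Rb1cc1, the FIP200 scaffold of the complex, was the lowest of this step at 0.837 and 0.958 FPKM in saline, 0.902 and 1.46 in treated wild type and 0.669 and 1.54 in treated knockout. Its replicates overlapped between all groups. Atg13 and Atg101, the complex's other adaptors, ran from 8.01 to 13.4 and from 11.0 to 15.8 FPKM, and neither passed in any comparison.

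**Figure D3:**
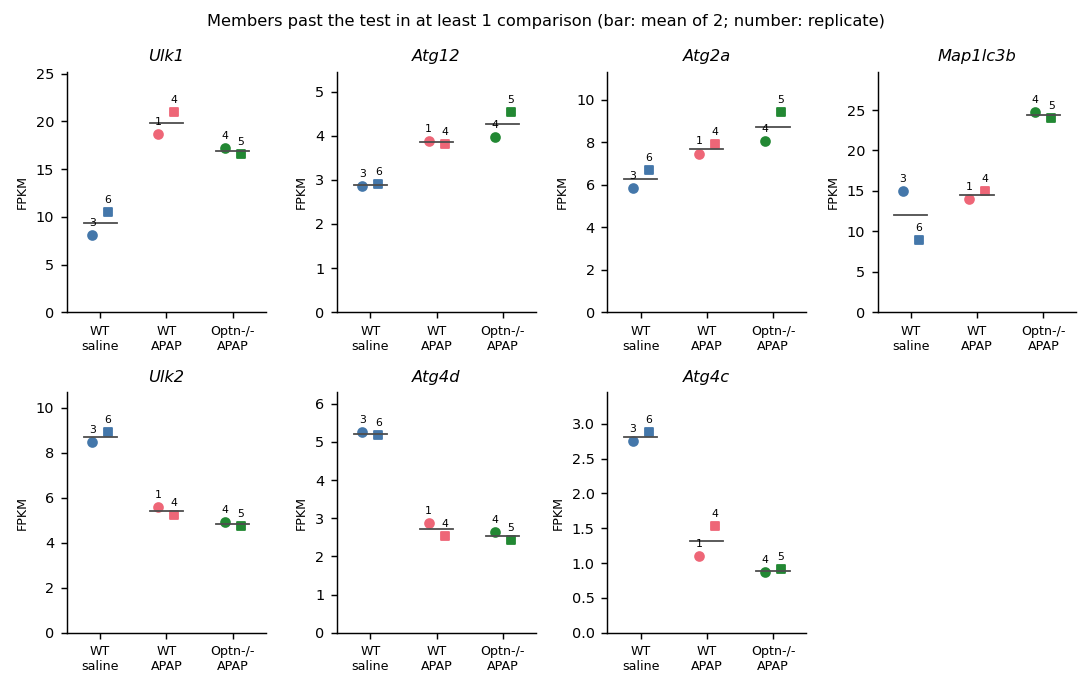
Deposited FPKM per liver of the 7 members that passed the test in at least 1 comparison, with bars at the mean of 2 and replicate numbers beside the points. Ulk1, Atg12 and Atg2a lie higher and Ulk2, Atg4d and Atg4c lower in all 4 treated livers than in both saline livers, and Map1lc3b is highest in the knockout livers.

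At the nucleation step none of 6 members passed edgeR's test in any comparison, and alternatives called Atg14 and Pik3c3, as given below. Nrbf2, a regulator of the lipid kinase complex, had the highest mean of the step, with 9.72 and 11.7 FPKM in saline, 9.32 and 10.2 in treated wild type and 7.30 and 9.44 in treated knockout. Uvrag, the subunit of the form that acts in endosomes and late autophagosomes, had the lowest mean and the widest spread: 0.713 and 3.33 FPKM in saline, 1.98 and 0.582 in treated wild type and 2.47 and 0.650 in treated knockout. In each group 1 liver was more than 2-fold above the other, and the SE of its log2 fold change was 0.98 (treated against saline wild type, -0.42).

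Atg14, which directs the lipid kinase to autophagosome formation, read 2.92 and 1.62 FPKM in saline, 2.98 and 5.71 in treated wild type and 2.67 and 3.29 in treated knockout. The higher saline liver and the lower treated wild-type liver were close together, and treated wild-type liver 4 stood above all others. Its log2 fold change in wild type was 1.13 ± 0.40 (unadjusted p of 0.029, edgeR adjusted p = 0.112). DESeq2 called it (adjusted p = 0.0340), the only one of the 15 alternatives to do so. Becn1 (5.14 to 6.33 FPKM), Pik3c3 (2.15 to 3.31) and Ambra1 (2.76 to 3.70) each varied by less than 2-fold over all livers. Pik3c3, the catalytic subunit, reached an unadjusted p of 0.0429 in treated knockout against saline (-0.38 ± 0.15, adjusted p = 0.127), and it was called lower there by DESeq2, both limma fits and total count scaling, 4 of the 15 alternatives. Becn1 shares 43.9% of its exonic bases with Cntd1 on the opposite strand, whose counts were at most 21, and the use of strand in counting is not given in the sources used here.

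Among the 6 members that supply and extend the membrane, Atg2a passed in 1 comparison. Atg2a (ENSMUSG00000024773, chromosome 19, 6241668 to 6262335, plus strand) encodes a lipid transfer protein that bridges the endoplasmic reticulum and the growing membrane. It was at 5.86 and 6.71 FPKM in saline, 7.47 and 7.94 in treated wild type and 8.04 and 9.43 in treated knockout. The 3 groups did not overlap and stood in that order. Atg2a rose in treated knockout against saline (0.65 ± 0.13, edgeR adjusted p = 0.0214), with 0.50 ± 0.13 (adjusted p = 0.0555) in wild type and 0.15 ± 0.13 (adjusted p = 0.785) between genotypes. The knockout call was lost in 7 of 15 alternatives, among them total count scaling (0.47, adjusted p = 0.0606) the library set term (0.57, adjusted p = 0.1199) and the fits without saline liver 3 (0.57, adjusted p = 0.122), saline liver 6 (0.72, adjusted p = 0.0668) or knockout liver 5 (0.54, adjusted p = 0.0945).

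Its paralog Atg2b had the lowest mean of the step, at 1.27 and 1.90 FPKM in saline, 0.933 and 1.13 in treated wild type and 1.19 and 1.43 in treated knockout. Treated wild-type livers lay below saline, and the log2 fold change of -0.41 ± 0.22 did not pass (adjusted p = 0.269). Vmp1, a scramblase of the endoplasmic reticulum, had the highest mean, with 16.6 and 23.5 FPKM in saline, 16.5 and 18.2 in treated wild type and 24.6 and 22.4 in treated knockout. Knockout livers lay above treated wild-type livers, with a log2 fold change of 0.41 ± 0.18 that did not pass (adjusted p = 0.608). Atg9a (6.00 to 10.5 FPKM), the lipid scramblase of the seed vesicles, and the phosphoinositide binders Wipi1 (2.04 to 4.11) and Wipi2 (6.25 to 7.14) passed in no comparison. Atg9a shares 31.8% of its exonic bases with Gm29253 on the same strand, which had at most 93 counts.

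Of the 6 members that build the ATG12 conjugate, Atg12 passed in 2 comparisons. Atg12 (ENSMUSG00000032905, chromosome 18, 46730144 to 46741580, minus strand) is the ubiquitin-like protein joined to ATG5, and the conjugate helps to attach LC3 to lipid. It was measured at 2.85 and 2.92 FPKM in saline, 3.89 and 3.81 in treated wild type and 3.98 and 4.54 in treated knockout. All treated livers lay above saline. Atg12 rose by 0.63 ± 0.12 in wild type (edgeR adjusted p = 0.0259) and by 0.74 ± 0.12 in treated knockout against saline (adjusted p = 0.0126), and it differed by 0.11 ± 0.12 between genotypes (adjusted p = 0.832).

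The wild-type call for Atg12 held in 6 of 15 alternatives. It was lost with total count scaling (0.41, adjusted p = 0.0744), with the library set as a term (0.63, adjusted p = 0.107), in both limma fits (adjusted p = 0.0995 and 0.104, with log2 fold changes of 0.36 and 0.32), and without a filter on low values (adjusted p = 0.0657). It was also lost without saline liver 3 (adjusted p = 0.1196), saline liver 6 (0.117), treated wild-type liver 1 (0.0933) or treated wild-type liver 4 (0.0677). Against saline, the knockout call was lost without saline liver 3 (adjusted p = 0.0713), saline liver 6 (0.0671) or knockout liver 5 (0.0694), and in the fit with a library set term (0.0726).

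Atg7, the E1-like enzyme that activates both ATG12 and LC3, read 4.10 and 5.17 FPKM in saline, 2.86 and 3.07 in treated wild type and 3.30 and 4.20 in treated knockout. Treated wild-type livers lay below saline, and knockout livers lay between and reached into the saline range. The log2 fold change in wild type was -0.43 ± 0.17 (unadjusted p of 0.0431, edgeR adjusted p = 0.142), and no alternative called it. Atg5, the partner of ATG12, had the highest mean of the step, at 14.5 and 13.7 FPKM in saline, 12.0 and 10.8 in treated wild type and 9.99 and 10.2 in treated knockout. FPKM of the 3 groups did not overlap, yet the fit, which scales the libraries by trimmed mean, gave -0.09 ± 0.13 (adjusted p = 0.683) in wild type and -0.30 ± 0.13 (adjusted p = 0.163) in treated knockout against saline. Both limma fits and total count scaling, which keep the scale of FPKM, called Atg5 lower in the latter comparison. Atg16l2 was the lowest of all members, with 0.607 and 0.531 FPKM in saline, 0.333 and 0.817 in treated wild type and 0.634 and 0.581 in treated knockout, and its treated wild-type replicates enclosed every other value. Atg16l1 (2.61 to 3.26 FPKM), which places the conjugate on the membrane, and Atg10 (1.11 to 1.88), the E2-like enzyme of ATG12, passed in no comparison.

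Of the 10 members that make up the LC3 and GABARAP family or process it, Atg4d fell in wild type and none rose. ATG4 proteases cut the precursors of LC3 and GABARAP proteins and later release them from lipid. Atg4d (ENSMUSG00000002820, chromosome 9, 21265293 to 21277772, plus strand) was at 5.25 and 5.18 FPKM in saline, 2.88 and 2.53 in treated wild type and 2.64 and 2.42 in treated knockout. Every treated liver lay well below both saline livers, and the treated genotypes overlapped. Its log2 fold change was -0.73 ± 0.15 in wild type (edgeR adjusted p = 0.0273), -0.86 ± 0.15 in treated knockout against saline (adjusted p = 0.0138) and -0.13 ± 0.15 between genotypes (adjusted p = 0.842).

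The wild-type call for Atg4d was lost without saline liver 3 (adjusted p = 0.116), saline liver 6 (0.0865), treated wild-type liver 1 (0.0525) or treated wild-type liver 4 (0.0959), and in the fit with a library set term (0.0904). In the knockout it was lost without saline liver 3 (0.0677) or knockout liver 5 (0.0750) and with the library set (0.0679). Atg4d shares 19.3% of its exonic bases with Kri1 on the opposite strand, whose counts were 558 and 684 in saline, 758 and 621 in treated wild type and 595 and 778 in treated knockout. Kri1 counts overlapped between all 3 groups. The ratio of Atg4d to its paralog Atg4b, both per length, was 1.94 and 1.88 in saline and between 1.01 and 1.29 in the treated livers.

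Atg4d is the member that fell in wild type, and the 120 bases before its RefSeq start (chr9:21265165-21265284, plus strand, GRCm38.p6) are shown for that reason. Capitals mark a CCAAT box, the letters bound by NF-Y, read on the other strand as ATTGG.
Atg4d: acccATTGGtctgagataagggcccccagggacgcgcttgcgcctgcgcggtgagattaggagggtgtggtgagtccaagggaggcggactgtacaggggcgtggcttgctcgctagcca
This stretch held 1 CCAAT box, and a GC box lies farther from the start in the Atg4d window.

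Atg4c (ENSMUSG00000028550, chromosome 4, 99193934 to 99259787, plus strand) had the lowest mean of this step, at 2.76 and 2.88 FPKM in saline, 1.10 and 1.53 in treated wild type and 0.865 and 0.919 in treated knockout. The groups did not overlap, and the knockout livers were lowest. Atg4c fell in treated knockout against saline (-1.47 ± 0.23, edgeR adjusted p = 0.0108) and missed the threshold in wild type (-0.89 ± 0.23, adjusted p = 0.0528). Between treated genotypes it differed by -0.58 ± 0.23 (unadjusted p of 0.043, edgeR adjusted p = 0.551). The knockout call was lost without saline liver 3 (adjusted p = 0.0523), knockout liver 4 (0.0556) or knockout liver 5 (0.0685). In wild type, 5 of 15 alternatives passed: DESeq2, both limma fits, total count scaling and a filter at a mean FPKM of 1. Atg4a (2.42 to 3.36 FPKM) and Atg4b (2.15 to 2.76) passed in no comparison.

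Map1lc3b (ENSMUSG00000031812, chromosome 8, 121590361 to 121598760, plus strand) encodes LC3B, the form most used to mark autophagosomes. It was at 15.0 and 8.90 FPKM in saline, 14.04 and 15.0 in treated wild type and 24.8 and 23.96 in treated knockout. Knockout livers stood above all others, while treated wild type overlapped saline. Map1lc3b rose in treated knockout against saline (1.203 ± 0.26, edgeR adjusted p = 0.0258), with 0.48 ± 0.25 (adjusted p = 0.249) in wild type. Between treated genotypes it differed by 0.72 ± 0.25 (unadjusted p of 0.0306, edgeR adjusted p = 0.523). The call against saline was lost without knockout liver 4 (adjusted p = 0.0975) or knockout liver 5 (0.105). The ratio of Map1lc3b to Map1lc3a, both per length, was 0.556 and 0.331 in saline, 0.576 and 0.513 in treated wild type and 0.777 and 0.843 in treated knockout. Annotated exons cover 7517 bases for Map1lc3b and 1181 for Map1lc3a. Counts not divided by length were higher for Map1lc3b (5541 to 15639) than for Map1lc3a (2059 to 3165). Which of the 2 is higher thus depends on the division by length.

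Gabarapl1 had the highest mean of all members, at 131.2 and 110.5 FPKM in saline, 189.8 and 161.5 in treated wild type and 119.7 and 37.4 in treated knockout. Knockout liver 5 lay below every other library, and knockout liver 4 lay within the saline range. The log2 fold change between genotypes was -1.18 ± 0.52 (edgeR adjusted p = 0.6), and -2.29 ± 0.23 without knockout liver 4 (adjusted p = 0.178), where the lone knockout library is assumed to vary like the other groups. That same fit called Gabarapl1 lower in treated knockout than in saline, a call no other fit made. Its ratio to Gabarap was 1.06 and 0.962 in saline, 1.83 and 1.71 in treated wild type and 1.16 and 0.432 in treated knockout. Gabarapl1 shares 28.3% of its exonic bases with 1700101I11Rik on the opposite strand, whose counts were 16 to 52. Gabarap (86.5 to 123.5 FPKM), Gabarapl2 (17.9 to 21.3), Map1lc3a (24.4 to 31.9) and Atg3 (12.5 to 20.6), the E2-like enzyme for LC3, passed in no comparison. Both limma fits and total count scaling called Atg3 lower in treated knockout than in saline, where edgeR gave -0.35 ± 0.13 (adjusted p = 0.12).

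**Figure D4:**
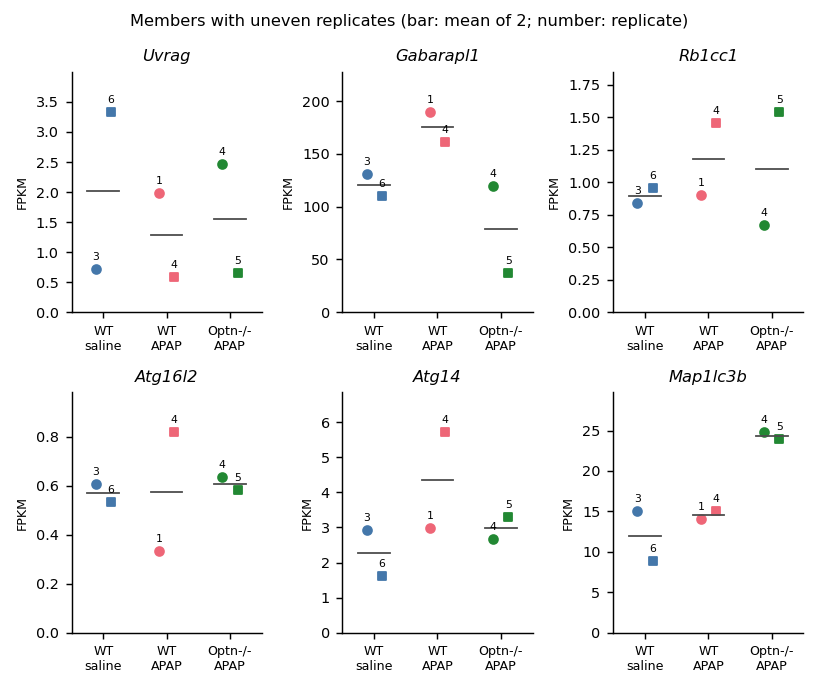
Deposited FPKM per liver of 6 members whose replicates differ most or whose groups overlap in part, with bars at the mean of 2 and replicate numbers beside the points. Uvrag is split within every group, Gabarapl1 is at 37.4 FPKM in knockout liver 5 alone, and Map1lc3b is high in both knockout livers.

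The second comparison asks whether loss of Optn changed these transcripts after acetaminophen. By edgeR's adjusted p no member passed the threshold, and Map1lc3b and Atg4c, 2 in all, reached 0.05 before adjustment. Over all tested genes 12 passed, 0.0514% higher and 0.0514% lower (0.103% in either direction), and 8.77% of genes reached 0.05 before adjustment. DESeq2, both limma fits and the fit with the library set as a term also called 0 members. The members' smallest adjusted p was 0.523, and their log2 fold changes ran from -1.18 (Gabarapl1) to 0.72 (Map1lc3b), with a median of -0.11. A p that misses the threshold does not show equal levels. Of the members called in another comparison, Map1lc3b differed between genotypes by 0.72 ± 0.25, Atg4c by -0.58 ± 0.23 and Atg2a by 0.15 ± 0.13. For the others, Ulk1, Atg12, Atg4d and Ulk2, the difference between genotypes was at most 0.26 in size with SE of 0.12 to 0.15. With a term for the library set, that of Ulk1 was -0.59 ± 0.24 (adjusted p = 0.9999). FPKM of the knockout livers lay above both treated wild-type livers for 9 members (23.1% of all tested genes) and below for 8 (15.9%).

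In the third comparison, treated knockout against saline wild type, genotype and drug differ together, and the saline livers are those of the first comparison. Of the members, 4 rose and 3 fell, against 12.2% and 8.05% of all tested genes (20.3% in either direction). Ulk1, Atg12, Atg2a and Map1lc3b rose, and Ulk2, Atg4c and Atg4d fell. An unadjusted p under 0.05 was reached by 9 members, against 35.9% of tested genes. Without overlap of FPKM, 7 members lay above saline (24.3% of tested genes) and 14 below (44.5%), and in treated wild type 6 lay above (21.1%) and 13 below (45.1%). Deposited FPKM is scaled to total counts, which places the median gene lower after treatment, as the medians under total count scaling show.

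Promoter windows from RefSeq (GRCm38.p6, 250 bases before to 50 after each start) were matched by symbol for 27 of 33 members, in 31 windows. Both strands were searched for the E-box of TFEB and TFE3 (CACGTG), the FOXO site (TGTTTAC), the composite ATF4 site (TGATGCAAT), the AP-1 site (TGANTCA), the GC box of SP1 (GGGCGG) and the CCAAT box of NF-Y (CCAAT). None of these strings contains another. Members' windows had a median GC content of 61.7%, against 52.7% over all 32851 windows. The GC box was in the windows of 18 members (66.7%, against 38.2% of all genes and 35.7% of all windows), and the CCAAT box in 6 (22.2%, against 41.1% and 37.4%). The FOXO, ATF4 and AP-1 strings were in no member's window, against 4.05%, 0.222% and 8.97% of all genes and 3.65%, 0.192% and 7.81% of all windows. At such shares 27 members would hold few matches, so their absence says little.

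The E-box CACGTG, through which TFEB and TFE3 act on autophagy and lysosomal genes, was found in 5 members (18.5%, against 8.09% of all genes and 7.15% of all windows): Atg14, Nrbf2, Atg7, Atg5 and Atg3. None of these passed edgeR's test in any comparison, although alternatives called Atg14 higher in wild type (DESeq2) and Atg3 and Atg5 lower in treated knockout against saline (both limma fits and total count scaling). The stretches around 4 of their E-boxes are shown because Tfe3 itself rose, as given below. They are chr10:67285467-67285506 (minus strand) for Nrbf2, chr6:114670947-114670986 (plus strand) for Atg7 and chr16:45158718-45158780 (plus strand) for Atg3, all in GRCm38.p6. Capitals mark CACGTG and, in Atg7, a CCAAT box read as ATTGG.
Nrbf2: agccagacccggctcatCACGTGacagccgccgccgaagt
Atg7: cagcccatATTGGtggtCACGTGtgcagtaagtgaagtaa
Atg3: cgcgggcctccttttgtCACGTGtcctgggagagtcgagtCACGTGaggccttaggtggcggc
Atg3 holds 2 copies. A match is a run of letters and no evidence of binding.

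Genes around the core were followed in 5 lists of 81 genes, of which 76 were tested (Rragd, Mitf, Bcl2, Usp13 and Tecpr1 did not pass the filter). After acetaminophen in wild type 15 of 76 rose and 6 fell, against 8.36% and 5.92% of all tested genes, the background for each list below. The lists were chosen with earlier results of these data known, so counts beside this background are description only. The median log2 fold change of these lists was 0.09, against 0.03 over all tested genes.

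Nutrient and energy control had 4 risers and 2 fallers of 21. Sesn2, a stress-induced inhibitor of mTORC1, was at 1.92 and 2.69 FPKM in saline, 20.03 and 19.3 in treated wild type and 23.2 and 16.9 in treated knockout, and rose by 3.30 ± 0.25 (edgeR adjusted p = 0.00241). Prkab2, a beta subunit of AMPK, rose by 1.93 ± 0.31 (adjusted p = 0.0158) and Sesn3 by 0.84 ± 0.14 (adjusted p = 0.0183). Prkab2 was at 0.249 and 0.462 FPKM in saline, 1.11 and 1.25 in treated wild type and 2.17 and 2.34 in treated knockout. Both saline values lie under 0.5, so Prkab2 passed the filter only through the treated livers, where it is high. Its log2 fold change in wild type ran from 0.69 to 2.42 over the alternatives. Prkaa2, a catalytic subunit of AMPK, fell (-0.70 ± 0.13, adjusted p = 0.0231). The calls for Sesn3 and Prkaa2 were lost without saline liver 3 (adjusted p = 0.0865 and 0.113), saline liver 6 (0.0869 and 0.0528) or treated wild-type liver 1 (0.0780 and 0.0848), and that for Prkaa2 also without treated wild-type liver 4 (0.0840).

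Transcription factors of autophagy genes had 6 risers and 1 faller of 14. Tfe3, an activator of lysosomal and autophagy genes, read 2.17 and 2.44 FPKM in saline, 4.06 and 4.23 in treated wild type and 4.64 and 5.39 in treated knockout, and rose by 1.06 ± 0.13 in wild type (edgeR adjusted p = 0.00815). Zkscan3, a repressor of autophagy genes, read 3.74 and 3.64 in saline, 1.52 and 1.62 in treated wild type and 1.66 and 1.78 in treated knockout, and fell (-1.02 ± 0.13, adjusted p = 0.00883). Both calls were lost without saline liver 3 (adjusted p = 0.0529 and 0.0548). Ddit3 (CHOP), of the integrated stress response, rose by 4.596 ± 0.27 (adjusted p = 0.00144) and Foxo3 by 1.496 ± 0.19 (adjusted p = 0.00946). Tfeb, the paralog of Tfe3, had a log2 fold change of -0.49 ± 0.44 (adjusted p = 0.497).

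Other subunits and regulators of the kinase complexes had 2 risers and 1 faller of 13. Wdr45b, a phosphoinositide binder related to the WIPI proteins, was at 6.30 and 5.82 FPKM in saline, 14.4 and 11.7 in treated wild type and 8.59 and 10.9 in treated knockout, and rose by 1.32 ± 0.18 in wild type (edgeR adjusted p = 0.0107). Bcl2l1 (BCL-XL), which binds Becn1, rose by 1.77 ± 0.25 (adjusted p = 0.0111). Usp10, a deubiquitinase that acts on Becn1, fell (-1.45 ± 0.22, adjusted p = 0.0135). All 3 calls were lost without saline liver 3 (adjusted p = 0.0548, 0.0654 and 0.0649), that for Wdr45b also without saline liver 6 (0.0558), and that for Usp10 without treated wild-type liver 1 (0.0645).

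Cargo receptors had 2 risers and 1 faller of 13. Sqstm1 (p62), which binds ubiquitin and LC3, rose by 1.82 ± 0.16 (edgeR adjusted p = 0.00331), as did Retreg1, a receptor for endoplasmic reticulum (2.98 ± 0.53, adjusted p = 0.0201). Retreg1 was at 5.13 and 5.65 FPKM in saline, 19.97 and 54.4 in treated wild type and 16.1 and 31.4 in treated knockout. Its highest value was in treated wild-type liver 4, the library with the neuron trace, whose part was not tested. Over the alternatives the log2 fold change of Retreg1 in wild type ran from 2.13 to 3.51. Optn fell (-0.90 ± 0.18, adjusted p = 0.027). The calls for Retreg1 and Optn were lost without saline liver 3 (adjusted p = 0.102 and 0.12) or saline liver 6 (0.0891 and 0.0685), and that for Optn without treated wild-type liver 1 (0.0969) or liver 4 (0.0987).

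Of 15 genes of fusion with the lysosome, Plekhm1, an adaptor of RAB7, rose (0.68 ± 0.12, edgeR adjusted p = 0.0207) and Stx17, the autophagosomal SNARE, fell (-0.84 ± 0.18, adjusted p = 0.035). Plekhm1 was at 2.88 and 2.99 FPKM in saline and 3.83 and 4.30 in treated wild type, and Stx17 at 3.94 and 3.49 in saline and 1.98 and 1.61 in treated wild type. The Plekhm1 call was lost without any of the 4 livers compared (adjusted p from 0.0556 to 0.0999), and the Stx17 call without any of the 6 libraries (0.0543 to 0.150). With a term for the library set, adjusted p was 0.0526 to 0.0873 for the wild-type values of Sesn3, Prkaa2, Wdr45b, Retreg1, Optn, Plekhm1 and Stx17, and those calls were lost. Between treated genotypes, Optn was the sole gene of the 76 to pass, and its call was lost with that term (-4.40, adjusted p = 0.0573) and without knockout liver 4 (-4.37, adjusted p = 0.0542). In treated knockout against saline 15 of 76 rose and 6 fell, against 12.2% and 8.05% of all tested genes.

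**Figure D5:**
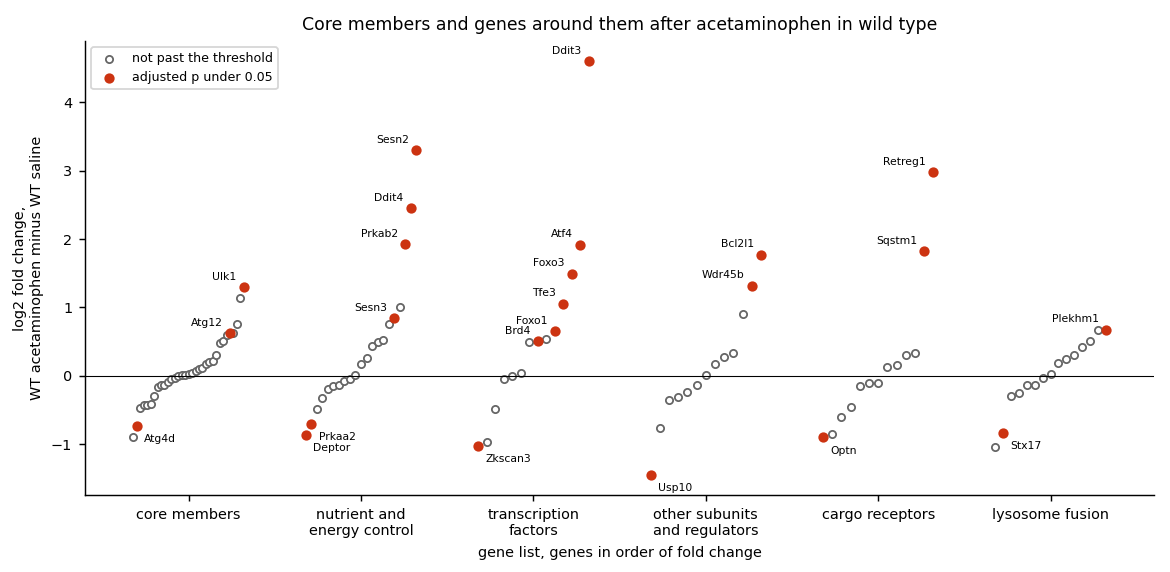
Log2 fold change of the 33 members and of the 76 tested genes around them for treated against saline wild type (edgeR, 2 livers per group), 1 point per gene in order of size, filled at an adjusted p under 0.05. Members span -0.89 to 1.30, while Ddit3, Sesn2 and Retreg1 of the surrounding lists reach 4.596, 3.30 and 2.98.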

How the data were processed

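The authors deposited whole-number counts, not normalized per the file headers, beside FPKM values for each gene in each liver. The deposited FPKM followed counts over total count and an implied gene length, which varied by a median of 0.371% (coefficient of variation) between libraries. For members that implied length was 1.088 to 1.112 times the length of their annotated exons (GENCODE M21). It was computed with the sum of the deposited counts as the total. The factor was near the same for short and long genes, at 1.088 for Map1lc3a (1181 bases) and 1.092 for Rb1cc1 (14690 bases). Its reason was not tested. Zero counts carry an FPKM of 0.0001. The submitters' processing notes name Bowtie 0.12.2 and the build mm8 (per the labels), but the table's coordinates equal GRCm38 (GENCODE M21) for 94.2% of matched genes and are given as such. Which program counted reads, and whether it used strand, is not given in the sources used here.

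Counts were fitted with edgeR 4.0.16 (quasi-likelihood, TMM scaling, R 4.3.3) as 3 group means over all 6 libraries, for the 11677 genes whose mean FPKM reached 0.5, with Benjamini-Hochberg adjustment over all of them and a threshold of 0.05. The SE is the absolute log2 fold change divided by the root of F. The common biological coefficient of variation was 0.277. The smallest two-sided p of an exact permutation test of 2 against 2 is 0.333, so none was used. Alternatives were DESeq2 1.42.0, limma 3.58.1 on log2(FPKM + 0.5) and log2(FPKM + 1), other scalings and filters, only the 2 groups compared, the library set as a term, and each library left out. The scripts were tested on simulated data.

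Replicates are individual animals per the series' design text. The p-values rest on the spread between 2 animals per group, pooled over the 3 groups and moderated by the spread of other genes. A group with unlike replicates thus shares its spread with the others. All 215 listed symbols matched the table, 1 of them in several rows, of which the first gave its values. Each of the 33 members matched 1 row. The members and lists were chosen with earlier results of these data known. Values in every library were given for members past the threshold or, in the first 2 comparisons, with an unadjusted p under 0.05, and for the highest and lowest mean of each step. Up to 4 genes with the smallest p were named per surrounding list. Atg12 and Pik3c3 promoter stretches were not used here.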

Additional observations from a re-analysis of the deposited data

How the results depend on the processing

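Of 45 single-gene results under 15 alternatives each (675 values), 576 kept their direction and side of the threshold, 83 kept the direction and lost the threshold, 11 gained it and 5 changed sign. The 576 include results not called in the main fit that stayed uncalled, among them all those of members between genotypes that kept their sign. All 83 losses fell on called results, so the calls were less stable than the pooled count shows. In wild type the 2 members that rose became 4 with DESeq2 and 1 in both limma fits, with total count scaling, with no filter and with a term for the library set. The 1 that fell became 3 with DESeq2, limma and total count scaling, 2 with a mean FPKM of 1 and 0 with the library set. Against saline, the knockout's 4 risers became 2 with the library set, and its 3 fallers became 6 with limma and total count scaling and 1 with the library set. Over all genes, risers and fallers in wild type numbered 1683 and 1419 with DESeq2 and 572 and 240 with the library set, and fallers 1496 and 1535 with limma and 1497 with total count scaling. Between genotypes there were 163 and 120 with DESeq2, 24 and 13 with no filter, 20 and 10 with only 2 groups, 3 and 0 with the library set, and 21 risers in each limma fit. In the knockout against saline there were 670 and 290 with the library set, and fallers numbered 1633 with DESeq2, 1841 and 1881 with limma and 1768 with total count scaling. The causes were not tested.

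Leaving out 1 library gave 1 to 2 risers and 0 to 1 fallers among members in wild type (360 to 742 and 134 to 534 over all genes). Between genotypes it gave 0 to 0 among members and 0 to 18 and 1 to 10 over all genes. In the knockout against saline it gave 1 to 4 and 0 to 3 among members and 534 to 1351 and 216 to 850 over all genes. These fits have fewer residual degrees of freedom, and a lone library of a group is assumed to vary like the others. Changes of sign were near 0 or uncalled: with the library set as a term, the difference between genotypes was 0.32 for Atg14 and -0.016 for Atg2a. Over the fits without 1 library it ran from -0.25 to 0.003439 for Atg4d, and Atg7 in the knockout against saline ran from -0.30 to 0.017. No paired analysis was possible because the groups compared share at most 1 replicate number. Every member had at least 147 counts in every library.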
